A study of Mus musculus with 26 samples.

Results

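Chromatin accessibility was examined at 8 genes of the retinoic acid pathway in mouse pluripotent cells: the receptors Rara, Rarb, Rarg and Rxra, the binding protein Crabp2, the synthesis enzyme Aldh1a2 and the degrading enzymes Cyp26a1 and Cyp26b1. A peak was assigned to a gene if it overlapped the gene's span in GRCm38 (mm10) or the 50 kb on either side. The 8 genes were chosen by name, among 21887 protein-coding genes. The peaks of all 26 libraries merged into 75600 regions, of which 84 lay in these 8 windows. Of the 84, 32 lay inside the gene itself and 11 within 1 kb of one of its start sites. A further 13 lay at promoters of other genes, 11 inside other genes and 17 between genes.

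ATAC-seq reads accessibility from where the transposase Tn5 can insert adapters into DNA, and each library came from 50000 cells. Formative stem (FS) cells were grown in A3XR and came as the lines FS1 (passage 21) and FS2 (passage 29). Epiblast stem cells (EpiSC) were grown in AF (EpiSC_AF, passage 22) or AFX (EpiSC_AFX1, passage 14, and EpiSC_AFX2, passage 16), and embryonic stem (ES) cells in 2iL (passage 16). Each of these 6 lines of the first set had 3 libraries. A second group of libraries, Rd2, had 2 from ES cells in 2iL at passage 33 (Rd2_ES) and 2 from EpiSC in AFX at passage 16 (Rd2_AFX). It also held 4 libraries of epiblast-like cells (Rd2_EpiLC), which were made from ES cells over 2 days in AF with KSR and sorted as the fraction of low GFP. From general knowledge of these media, AF holds activin and FGF, AFX adds the tankyrase inhibitor XAV939, and A3XR combines low activin, XAV939 and an inverse agonist of the retinoic acid receptors. The Rd2 libraries are titled WT and the Rd2_ES libraries are labelled Rd2GFP, while the first-set labels name no strain or genotype. Medium, line and passage cannot be told apart, and ES and EpiSC_AF are each 1 line.

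Retinoic acid is made from retinaldehyde by enzymes such as Aldh1a2 and is oxidised and cleared by the Cyp26 enzymes. Crabp2 carries it to nuclear receptors, which bind DNA as pairs of a retinoic acid receptor and a retinoid X receptor such as Rxra. Without ligand the pair recruits corepressors, and with ligand it recruits coactivators. Rarb and Cyp26a1 are textbook targets of the pathway, each with a retinoic acid response element near a start site. In culture retinoic acid promotes the exit of pluripotent cells into differentiation, and in the embryo it patterns the trunk and hindbrain.

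That element, a direct repeat of the receptor's hexamer with a spacer of 5 bases (DR5), is the sequence to which ligand-bound and ligand-free receptor pairs attach. It was searched on both strands of RefSeq promoter windows (GRCm38.p6), which run from 250 bases before to 50 after a start site. The table held 12 windows for 7 of the 8 genes and none for Crabp2. A DR5 match stood in the windows of Rarb and Cyp26a1 and in none of the other 10. Across all 32851 windows, 32 (0.0974%) held one. Repeats with a spacer of 1 base were in 0.222% of windows and those with 2 bases in 0.268%, and none was in a window of the 8 genes. Both DR5 windows are printed with the match in capitals, and an Rara window and the Aldh1a2 window, without a match, are shown because they had peaks in most FS and EpiSC libraries.
Rarb, chr14:16575427-16575726, minus strand: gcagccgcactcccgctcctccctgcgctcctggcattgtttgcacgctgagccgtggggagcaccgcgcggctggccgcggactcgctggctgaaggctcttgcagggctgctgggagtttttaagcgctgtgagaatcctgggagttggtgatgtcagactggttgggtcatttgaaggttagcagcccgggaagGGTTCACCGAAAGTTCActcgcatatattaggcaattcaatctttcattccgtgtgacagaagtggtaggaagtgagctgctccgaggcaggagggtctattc
Cyp26a1, chr19:37697558-37697857, plus strand: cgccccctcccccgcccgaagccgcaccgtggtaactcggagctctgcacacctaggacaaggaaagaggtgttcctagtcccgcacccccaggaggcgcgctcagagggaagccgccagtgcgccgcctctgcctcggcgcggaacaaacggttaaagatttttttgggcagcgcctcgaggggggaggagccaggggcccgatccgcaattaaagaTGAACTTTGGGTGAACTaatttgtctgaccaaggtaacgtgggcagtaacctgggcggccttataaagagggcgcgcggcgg
Rara, chr11:98937446-98937745, plus strand: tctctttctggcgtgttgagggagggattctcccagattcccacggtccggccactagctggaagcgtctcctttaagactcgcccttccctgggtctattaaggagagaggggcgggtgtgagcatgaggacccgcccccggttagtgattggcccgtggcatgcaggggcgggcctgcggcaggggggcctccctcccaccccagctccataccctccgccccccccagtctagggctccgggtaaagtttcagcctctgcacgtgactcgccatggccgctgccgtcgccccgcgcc
Aldh1a2, chr9:71215539-71215838, plus strand: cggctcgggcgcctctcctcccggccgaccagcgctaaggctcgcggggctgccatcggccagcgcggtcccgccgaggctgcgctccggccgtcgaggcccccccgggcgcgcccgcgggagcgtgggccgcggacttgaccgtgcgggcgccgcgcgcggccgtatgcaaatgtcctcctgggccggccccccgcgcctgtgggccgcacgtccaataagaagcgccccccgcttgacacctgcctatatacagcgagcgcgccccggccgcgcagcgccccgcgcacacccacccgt
The Rarb match lay between bases −53 and −37 relative to its start site, in the direction of the gene (chr14:16575513-16575529). The Cyp26a1 match lay between bases −32 and −16 and ran on the opposite strand (chr19:37697776-37697792). A match describes the letters only and does not show that a receptor was bound there.

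List length differed widely between libraries, from 471 to 31263 peaks, and the read depth behind the lists is unknown. In the first set, FS1 lists held 23883 to 31263 peaks, FS2 lists 11796 to 14147, EpiSC lists 15505 to 29575 and ES lists at most 10961. Each comparison was therefore made on the peaks of highest −log10 p in every first-set list, as many as the shortest of these lists holds. This is called equal length here, and the full lists are given beside it. The shortest is an ES list, which is kept whole, while longer lists lose their weaker peaks. Marker genes were read at equal length within 20 kb. The 8 formative markers had 6 ± 1.41 peaks in FS (SD, n = 6), 9.17 ± 1.6 in EpiSC_AFX (n = 6) and 0.667 ± 1.15 in ES (n = 3). The 10 naive markers had 9.33 ± 0.577 in ES, 4.33 ± 1.37 in FS and 5.5 ± 1.05 in EpiSC_AFX. Zfp42 and Tbx3 were at 0 in FS and EpiSC, and Nr5a2 and Dppa3 in FS, EpiSC and ES. In the full lists the order of the naive markers turned, with 10.7 ± 2.08 in ES, 12.8 ± 6.88 in FS and 17.7 ± 3.44 in EpiSC_AFX. The 8 primed and early lineage markers had 3 ± 1.26 in FS at equal length, 3.83 ± 0.983 in EpiSC_AFX, 5 ± 1 in EpiSC_AF (n = 3) and 2.33 ± 0.577 in ES. In the full lists they had 9.5 ± 4.14 in FS, 14.5 ± 4.04 in EpiSC_AFX, 13 ± 2.65 in EpiSC_AF and 2.67 ± 0.577 in ES. For fibroblast markers, which feeder cells would carry, 2 of 5 genes had a peak in FS and in ES, with summed counts of 2 to 5 in FS and 1 to 2 in ES, and Col1a2, Col3a1 and Dcn were at 0 in both. In EpiSC_AF 4 of the 5 genes had a peak and in EpiSC_AFX 3, with summed counts of 3 and of 2 to 5. Across the full lists all 5 had a peak in FS, EpiSC_AF and EpiSC_AFX, and 3 in ES. The part of feeder cells in the results was not tested.

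The number of peaks near the 8 genes moved with list length. Over the full lists the summed number ranged from 37 to 40 in FS1, 17 to 23 in FS2, 24 to 35 in EpiSC_AF, 30 to 41 in the EpiSC_AFX lines and 4 to 8 in ES. As a share of its list this was 0.128% to 0.163% in FS, 0.115% to 0.169% in EpiSC and 0.0497% to 0.0824% in ES. FS1 and FS2 thus differed in number and overlapped in share, while every ES library was below every other first-set library in both. In the Rd2 set, Rd2_AFX had 16 and 16 peaks, Rd2_EpiLC 10, 29, 12 and 35, and Rd2_ES 0 and 2, the last from lists of 471 and 2576 peaks.

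**Figure D1:**
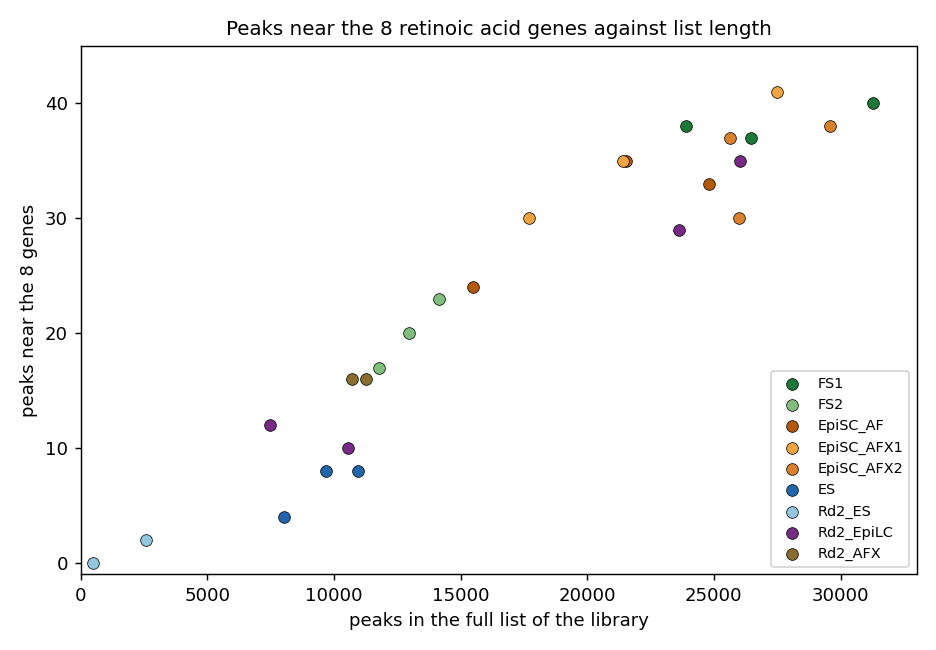
Peaks near the 8 genes (y axis, number) against the number of peaks in the full list (x axis, number), 1 point per library, coloured by line. Points climb with list length, and the 3 ES libraries of the first set, with 4 to 8 member peaks, sit below Rd2_AFX, with 16, at similar list lengths.

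At equal length the summed number was 11.8 ± 2.23 in FS (SD, n = 6), 10.8 ± 1.47 in EpiSC_AFX (n = 6), 10.7 ± 1.15 in EpiSC_AF (n = 3) and 5.67 ± 1.53 in ES (n = 3). Most of the difference between FS and ES lay outside the 8 genes. Peaks inside a member gene or at its start sites numbered 2.5 ± 0.548 in FS and 2.33 ± 1.15 in ES. All of these ES peaks, 1, 3 and 3 by library, were Rarb peaks, and the other member genes had none of their own in ES. Rarb gave 1 such peak in each FS library, so the similar means rest on Rarb and do not hold for the other genes. Peaks at neighbouring genes or between genes numbered 9.33 ± 2.16 in FS and 3.33 ± 2.08 in ES. In EpiSC_AFX the own and neighbouring peaks numbered 1.83 ± 0.408 and 9 ± 1.41, and in EpiSC_AF 3 ± 1 and 7.67 ± 0.577. The summed difference between FS and EpiSC turned with the list, from 1 peak at equal length to −6 in the full lists for EpiSC_AFX and from 1.17 to −1.5 for EpiSC_AF.

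**Figure D2:**
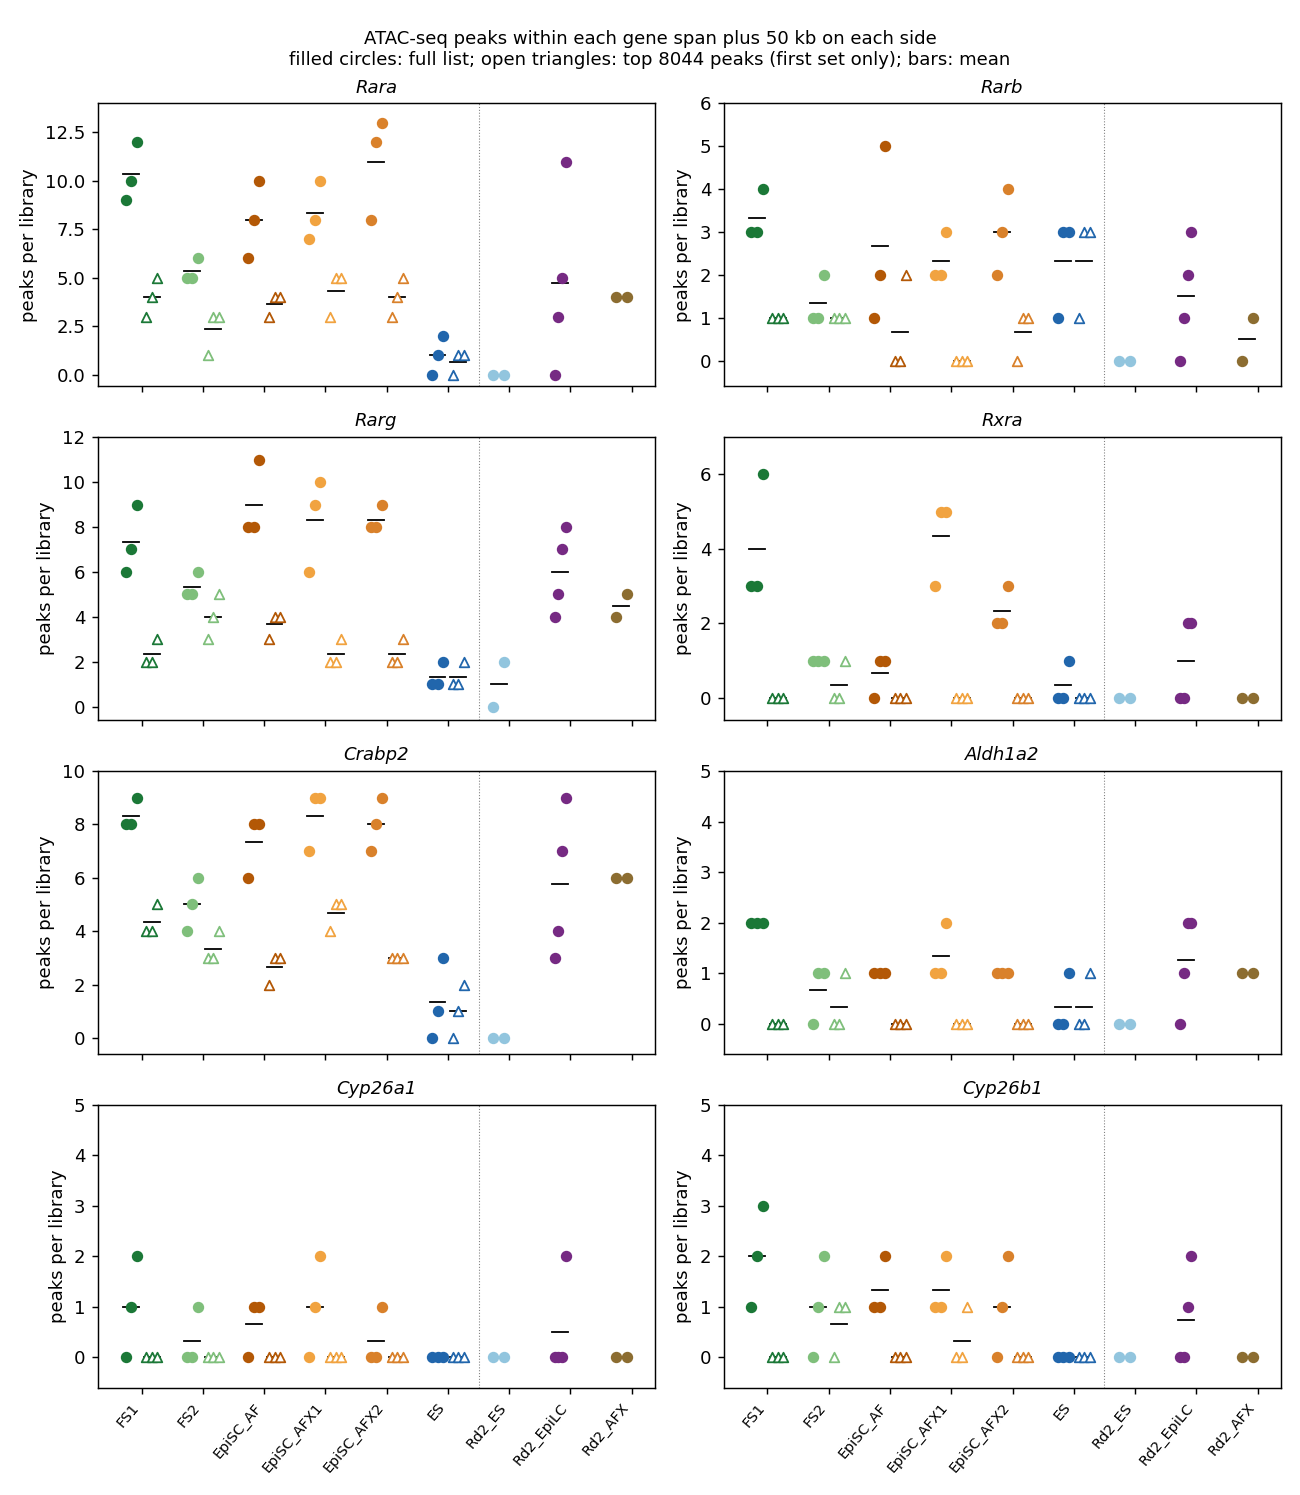
Peaks per library (y axis, number) within each gene span plus 50 kb, for the 9 lines (x axis). Filled circles are full lists, open triangles the strongest peaks of the first-set lists at equal length, and bars the mean of a line. The windows of Rara, Rarg and Crabp2 hold several peaks in FS and EpiSC libraries and 0 to 3 in ES libraries, while Rxra, Aldh1a2, Cyp26a1 and Cyp26b1 hold 0 or 1 peak at equal length.

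The windows fell into dense and sparse ones. In FS at equal length, Crabp2 had 3.66 peaks per 100 kb (98.3rd percentile of all protein-coding genes), Rarg 2.58 (93.5th) and Rara 2.15 (89.5th), where the median gene had 0.574. Cyp26b1 had 0.272 peaks per 100 kb, Rarb 0.133, Aldh1a2 0.0924 and Rxra 0.0892, at the 27.4th to 37.1st percentile. Cyp26a1 had none. These percentiles describe windows that include neighbouring genes.

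Comparisons of FS with ES, EpiSC_AFX and EpiSC_AF use the same FS libraries, so they are not independent of each other. For each gene, the difference in mean peak number was tested with a two-sided exact permutation test over libraries, adjusted by Benjamini-Hochberg over all protein-coding genes with a peak. For each region, presence was tested with Fisher's exact test, adjusted over all regions. With 6 against 3 libraries the smallest possible p is 0.0119, and with 6 against 6 it is 0.00216, and no gene or region of the genome passed an adjusted p of 0.05 in any of the 3 comparisons, at equal length or in the full lists. The labels do not say that libraries of a line came from separate cultures, so p-values measure the spread between libraries, which may be technical.

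FS had more peaks than ES, with no overlap between libraries, for 1 of the 7 member genes with a peak at equal length. This was Crabp2. Among all genes tested, 5.21% were higher in FS without overlap and 2.12% higher in ES. Across the full lists Rara, Rarg and Crabp2 were separated in this way, 3 of 8 genes, against 17.9% of all genes higher in FS and 0.326% higher in ES. The median difference of the member genes was 0.333 peaks at equal length and 1.83 in the full lists, beside 0.167 and 1.17 over all genes tested. At an unadjusted p under 0.05 by exact permutation there were 1 of 7 member genes at equal length and 3 of 8 in the full lists. Of all genes tested these were 2086 of 17769 and 4833 of 19930.

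Against EpiSC_AFX, no member gene was separated from FS in either direction at equal length, where 0.129% of all genes were higher in FS and 0.106% higher in EpiSC_AFX without overlap. In the full lists none was separated either, beside 0.00985% and 0.0985% of all genes. Against EpiSC_AF, none was separated at equal length, beside 0.705% higher in FS and 0.836% higher in EpiSC_AF, or in the full lists, beside 0.295% and 0.315%. No member gene reached an unadjusted p under 0.05 in either comparison, by the exact permutation test. Such results do not show that FS and EpiSC are alike at these genes.

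Rara encodes retinoic acid receptor alpha, a broadly expressed receptor (chr11:98927800-98974942). Its window also holds Wipf2, Cdc6, Gm46294, Gjd3 and Top2a. At equal length it had 5, 3 and 4 peaks in FS1, 3, 3 and 1 in FS2, and 1, 0 and 1 in ES. EpiSC_AF had 4, 3 and 4, EpiSC_AFX1 3, 5 and 5, and EpiSC_AFX2 5, 3 and 4. FS met ES at 1 peak and overlapped all EpiSC lines, and the difference of 2.5 peaks between FS and ES did not pass the test (exact permutation p = 0.0714, adjusted p = 0.413). Over the full lists FS had 7.83 ± 2.93 peaks (SD, n = 6) and ES 1 ± 1 (n = 3), without overlap (exact permutation p = 0.0238, adjusted p = 0.144).

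The promoter of Rara was the most often open of the member promoters at equal length. Its region, chr11:98937454-98937940, covers the start site of the printed window and had a peak in all 3 FS1 libraries, 1 of 3 FS2, all 3 EpiSC_AF and 5 of 6 EpiSC_AFX. No ES library had one there, in the full list either. Across the full lists the peak ranked at the 90.7th to 95.3rd percentile of its own list in FS1 (by −log10 p, the strongest peak highest), at the 73.8th in the FS2 library, at the 85.5th to 97.8th in EpiSC_AF and at the 53.1st to 98.2nd in EpiSC_AFX. A second region, chr11:98963703-98964808, ended just before a downstream start site, within 1 kb of it. It had a peak in the full lists of all 3 FS1, no FS2, 3 of 3 EpiSC_AF and 5 of 6 EpiSC_AFX libraries, and in no ES library. The RefSeq promoter window of that start site overlapped a full-list peak in 0 of 6 FS, 1 of 3 EpiSC_AF and 2 of 6 EpiSC_AFX libraries.

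A pair of regions inside the neighbouring gene Wipf2 had a full-list peak in all 6 FS libraries and no ES library, at chr11:98891815-98892761 and chr11:98902578-98903738. For either, Fisher's exact p was 0.0119 and the adjusted p was 0.348. The first had a peak in every EpiSC library of the first set as well, and the second in 1 of 3 EpiSC_AF and 4 of 6 EpiSC_AFX libraries. At equal length each was present in 2 of 6 FS libraries. The promoters of Cdc6, a replication licensing factor, and Top2a, a DNA topoisomerase, had peaks in all 15 FS and EpiSC libraries of the first set in the full lists. At equal length the Cdc6 promoter region was open in 6 of 6 FS and 1 of 3 ES libraries, and the Top2a region in 5 of 6 and 1 of 3.

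Rarb encodes retinoic acid receptor beta, whose gene spans 651 kb (chr14:16430839-17082331) and shares its window with Top2b. FS1 had 1, 1 and 1 peaks, FS2 1, 1 and 1, and ES 1, 3 and 3. EpiSC_AF had 0, 2 and 0, EpiSC_AFX1 0, 0 and 0, and EpiSC_AFX2 0, 1 and 1. FS and ES met at 1 peak (difference −1.33, exact permutation p = 0.0833, adjusted p = 0.413), and FS and EpiSC_AFX also met at 1 (difference 0.67, exact permutation p = 0.0606, adjusted p = 1). In the full lists FS and ES had the same mean, 2.33 peaks, and the difference between FS and EpiSC_AFX turned to −0.33.

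Equal or similar numbers hid different positions. The single peak of every FS library at equal length was at the same place, chr14:16447611-16447944, inside the gene at 128 kb from the start site with the DR5 match, on the downstream side. It was present in 6 of 6 FS and 0 of 3 ES libraries (Fisher's exact p = 0.0119, adjusted p = 0.31). At equal length it was also present in 1 of 3 EpiSC_AF and 2 of 6 EpiSC_AFX libraries, and FS did not differ from either past an unadjusted p of 0.05 (Fisher's exact p = 0.0833 and p = 0.0606). Over the full lists it was present in 2 of 3 EpiSC_AF, 5 of 6 EpiSC_AFX and 1 of 4 Rd2_EpiLC libraries, and in no ES, Rd2_ES or Rd2_AFX library. Within its own list the FS peak ranked at the 82.2nd, 71.2nd and 79.6th percentile in FS1 and the 46.6th, 82.7th and 75.8th in FS2. In the EpiSC libraries that had it, it ranked between the 52nd and the 89.4th percentile. At equal length the peak counts at the 46.6th percentile of a shorter FS2 list, but not at the 67.9th of a longer EpiSC_AFX2 list. Its equal-length presence in FS and EpiSC therefore depends on list length as well.

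The ES peaks lay elsewhere. All 3 ES libraries, and no FS library, had a peak at equal length at chr14:16971146-16971516, inside the span at −396 kb from the same start site (Fisher's exact p = 0.0119, adjusted p = 0.31). It was among the strongest peaks of the ES lists, at the 95.5th, 95.4th and 93.9th percentile. Across the full lists 1 of 6 FS libraries had it, at the 41.5th percentile of an FS1 list (FS against ES, Fisher's exact p = 0.0476, adjusted p = 0.638). All 3 EpiSC_AF libraries had it between the 38.3rd and the 69.1st percentile. The EpiSC_AFX lines parted, with a peak in all 3 EpiSC_AFX2 libraries, between the 39.3rd and the 63.3rd percentile, and in 0 of 3 EpiSC_AFX1 libraries. No Rd2 library had a peak there, the 2 Rd2_ES libraries included, whose short lists limit what an absent peak shows.

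Of all regions tested at equal length, 1.71% were held by every FS and no ES library and 2.13% by every ES and no FS library. In the 8 windows these were 1 and 1 of 27 regions, both in Rarb. In the full lists they were 4 and 0 of 63, beside 2.91% and 0.507% of all regions. At an unadjusted p under 0.05 by Fisher's exact test there were 2 of 27 member regions at equal length and 9 of 63 in the full lists. Of all regions tested these were 1464 of 21844 and 3573 of 47898. With only peaks of a −log10 q of at least 5, the upstream region was separated and the downstream region was not.

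**Figure D3:**
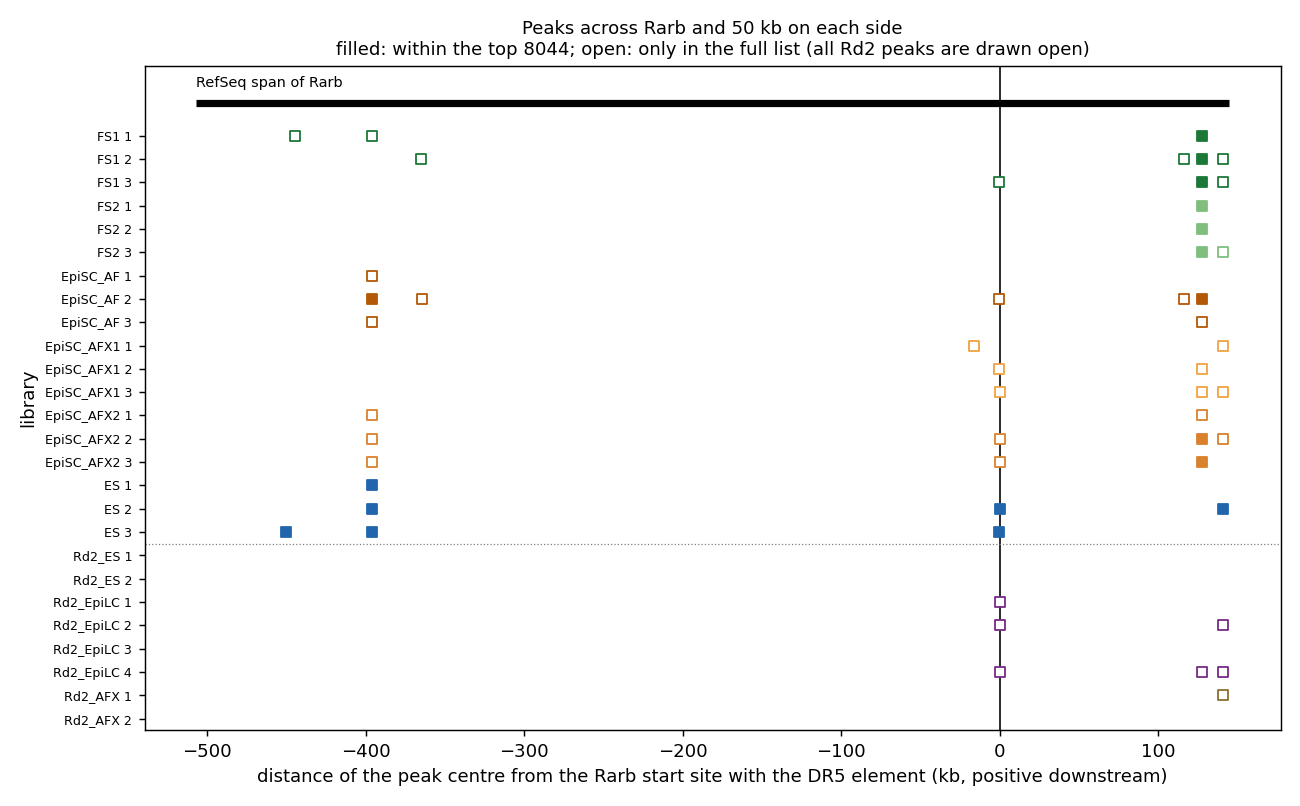
Peaks in the Rarb window by library (y axis), placed by the distance of the peak centre from the start site with the DR5 match (x axis, kb, positive downstream), with the gene span as a black bar. Filled squares are peaks of a first-set list at equal length and open squares the others. A filled square at 128 kb stands in all 6 FS rows and one at −396 kb in all 3 ES rows.

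The Rarb promoter itself, with the DR5 match printed above, was open in few FS libraries. Its region, chr14:16575279-16575803, had a full-list peak in 1 of 6 FS, 1 of 3 EpiSC_AF, 4 of 6 EpiSC_AFX, 2 of 3 ES, 3 of 4 Rd2_EpiLC and 0 of 2 Rd2_AFX libraries. The FS peak, in FS1, ranked at percentile 11.1 of its list and the EpiSC peaks between 5.7 and 50.3. The ES peaks ranked at percentiles 3.92 and 30.9, and they are the only ones at equal length. The ES list with the peak at percentile 3.92 is the shortest and is kept whole there, so even its weak peaks count. EpiSC peaks of up to percentile 50.3 do not count, because their longer lists are cut. The equal-length result therefore does not show that this promoter was more open in ES. The peak covered the DR5 match itself in the same numbers of libraries, except that the EpiSC_AF peak did not reach it. No comparison of FS reached an unadjusted p under 0.05 at this region, by Fisher's exact test.

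Rarg encodes retinoic acid receptor gamma (chr15:102234938-102257522), and its window holds Csad, Zfp740, Itgb7, Mfsd5 and Espl1. At equal length FS1 had 2, 2 and 3 peaks, FS2 5, 3 and 4, EpiSC_AF 4, 4 and 3, EpiSC_AFX1 2, 3 and 2, EpiSC_AFX2 3, 2 and 2, and ES 1, 1 and 2. FS and ES met at 2 peaks (difference 1.83, exact permutation p = 0.0595, adjusted p = 0.413). Over the full lists FS had 6.33 ± 1.51 peaks (SD, n = 6) and ES 1.33 ± 0.577 (n = 3), without overlap (exact permutation p = 0.0119, adjusted p = 0.128). Against EpiSC_AFX the difference was 0.83 peaks at equal length (exact permutation p = 0.262, adjusted p = 1) and −2 in the full lists (exact permutation p = 0.0628, adjusted p = 0.979). Rarg lies on chromosome 15, which held 5.65% to 5.78% of the peaks of each FS2 list, 4.41% to 4.51% in FS1, 3.81% to 4.1% in EpiSC and 3.36% to 3.53% in ES. The part of this share in the Rarg counts was not tested, and at equal length the difference between FS and ES was 1 peak with FS1 alone and 2.67 with FS2 alone.

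The promoters of Rarg were open in FS and EpiSC and in no first-set ES library. The region at its inner start site, chr15:102246255-102247954, had a full-list peak in all 3 FS1, 1 of 3 FS2, all 3 EpiSC_AF, all 6 EpiSC_AFX, all 4 Rd2_EpiLC and both Rd2_AFX libraries. The region at its outer start site, chr15:102257142-102258912, had one in all 3 FS1, 1 of 3 FS2, 3 of 3 EpiSC_AF, 5 of 6 EpiSC_AFX and 2 of 4 Rd2_EpiLC libraries. Not every peak reached the RefSeq promoter windows. The inner window overlapped a full-list peak in 3 of 4 Rd2_EpiLC and 0 of 2 Rd2_AFX libraries, and the outer window in 0 of 3 FS2 libraries. At equal length the inner region was left in 2 of 3 EpiSC_AF libraries and no other, and the outer region in none. The strong peaks of the window belonged to neighbours. The shared promoter region of Csad and Zfp740 was open at equal length in 6 of 6 FS and 2 of 3 ES libraries, and that of Espl1, the separase gene, in 6 of 6 and 1 of 3.

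Inside the integrin gene Itgb7, chr15:102224343-102225358 had a full-list peak in all 15 FS and EpiSC libraries and no ES library (FS against ES, Fisher's exact p = 0.0119, adjusted p = 0.348). At equal length it was present in all 3 FS2 libraries, no FS1 library, 1 of 6 EpiSC_AFX and no EpiSC_AF library. Its percentile rank was 72.1 to 88.6 in FS2, 61.5 to 66.2 in FS1, 23.3 to 54.6 in EpiSC_AF and 41.9 to 81.1 in EpiSC_AFX. A region inside Zfp740, chr15:102214176-102214597, had a full-list peak in all 3 EpiSC_AF and no FS library (Fisher's exact p = 0.0119, adjusted p = 1), beside 0.308% of all regions that were held by every EpiSC_AF and no FS library. None was held by every FS and no EpiSC_AF library, where the share of all regions was 0.142%. At equal length neither pattern was seen in the 8 windows, beside 0.566% and 0.332% of all regions. Between FS and EpiSC_AF in the full lists, 2 of 67 member regions had an unadjusted p under 0.05 by Fisher's exact test. These were the Zfp740 region and the Rarb region chr14:16971146-16971516 (Fisher's exact p = 0.0476 before adjustment). Of all regions tested 621 of 49943 had such a p.

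Rxra encodes retinoid X receptor alpha, the partner of the retinoic acid receptors (chr2:27676445-27763319), and no other protein-coding gene reached its window. At equal length 1 FS2 library had 1 peak and every other first-set library had 0. Across the full lists FS1 had 3, 3 and 6 peaks, FS2 1, 1 and 1, EpiSC_AF 0, 1 and 1, EpiSC_AFX1 5, 3 and 5, EpiSC_AFX2 2, 3 and 2, and ES 0, 0 and 1. Every FS1 library was above every FS2 library, and the FS1 lists were longer. FS and ES met at 1 peak (difference 2.17, exact permutation p = 0.155, adjusted p = 0.326).

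An intragenic region of Rxra, chr2:27719690-27719960, was the member region with the smallest p between FS and EpiSC_AFX. It had a full-list peak in all 6 EpiSC_AFX libraries and in 1 of 6 FS, 0 of 3 EpiSC_AF and 0 of 3 ES libraries (FS against EpiSC_AFX, Fisher's exact p = 0.0152, adjusted p = 1). In the full lists 1 of 76 member regions, this one, had an unadjusted p under 0.05 by Fisher's exact test. Of all regions tested these were 420 of 59271. The EpiSC_AFX peaks ranked between the 25.3rd and the 62.6th percentile and the FS1 peak at the 64.1st, and none was left at equal length. No Rd2 library had a peak there, the 2 Rd2_AFX libraries included, whose lists held 11252 and 10719 peaks. No region of the 8 windows was held by every library of one type and none of the other between FS and EpiSC_AFX. At equal length 0.128% of all regions were held by every FS and no EpiSC_AFX library and 0.0535% by the reverse, and in the full lists 0.0253% and 0.0759%. The start sites of Rxra had peaks in few libraries, with at most 2 of the 18 first-set libraries at any of its 3 promoter regions.

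Crabp2 encodes the protein that delivers retinoic acid to the nuclear receptors (chr3:87948693-87953372), in a window shared with Hdgf, Mrpl24, Rrnad1, Isg20l2, Nes and Bcan. At equal length FS1 had 4, 5 and 4 peaks, FS2 4, 3 and 3, and ES 2, 0 and 1. EpiSC_AF had 2, 3 and 3, EpiSC_AFX1 4, 5 and 5, and EpiSC_AFX2 3, 3 and 3. Every FS library was above every ES library (difference 2.83, exact permutation p = 0.0119, the smallest possible, adjusted p = 0.19). FS and EpiSC_AFX had the same mean, 3.83 peaks. Within 20 kb instead of 50 kb, FS had 1.33 and ES 0.667 peaks and the groups overlapped (exact permutation p = 0.25, adjusted p = 0.896).

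Most peaks of the Crabp2 window stood at its neighbours. The Hdgf promoter region, chr3:87905955-87906404, was open at equal length in all 15 FS and EpiSC libraries and in 1 of 3 ES libraries. A second region inside Hdgf, chr3:87910470-87911091, was open at equal length in all 3 FS1, no FS2, 2 of 3 EpiSC_AF and all 6 EpiSC_AFX libraries, and in no ES library. Inside Nes, the gene of the intermediate filament nestin, chr3:87974221-87974970 was open at equal length in 3 of 3 FS1, 1 of 3 FS2, 1 of 3 EpiSC_AF, 6 of 6 EpiSC_AFX and 0 of 3 ES libraries. An intergenic region, chr3:87960531-87961161, was open in 3 of 6 FS and 2 of 3 ES libraries. Inside Crabp2 itself, chr3:87952458-87952755 had a full-list peak in 2 of 3 FS1, 2 of 3 FS2, 0 of 3 EpiSC_AF, 2 of 6 EpiSC_AFX and 0 of 3 ES libraries. It was present at equal length in 3 of 6 FS libraries and no other, and the FS libraries themselves were divided.

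Aldh1a2 encodes the retinaldehyde dehydrogenase that makes retinoic acid in the early embryo (chr9:71215789-71296243). Its promoter, chr9:71215230-71216475, had a full-list peak in all 3 FS1, 2 of 3 FS2, 2 of 3 EpiSC_AF, all 6 EpiSC_AFX, 3 of 4 Rd2_EpiLC and both Rd2_AFX libraries, and in 0 of 3 ES libraries (FS against ES, Fisher's exact p = 0.0476, adjusted p = 0.638). The peak ranked between the 7.23rd and the 65.2nd percentile in FS and between the 5.57th and the 48.2nd in EpiSC_AFX, so it was of middling or low strength. At equal length it was left in 1 FS2 library. That library and 1 ES library, whose peak lay at −19.7 kb from the start site, were the only first-set libraries with an Aldh1a2 peak at equal length. The difference between FS and ES there was −0.17 peaks (exact permutation p = 1, adjusted p = 1), and it was 1 in the full lists (exact permutation p = 0.238, adjusted p = 0.425) and 0.167 without the first ES library.

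Cyp26a1 (chr19:37697738-37701536) encodes the main retinoic acid hydroxylase of the early embryo and lies beside its relative Cyp26c1 and the exocyst gene Exoc6. It had no peak in any first-set library at equal length and was not tested there. In the full lists FS1 had 1, 2 and 0 peaks, FS2 1, 0 and 0, EpiSC_AF 1, 0 and 1, EpiSC_AFX1 1, 2 and 0, EpiSC_AFX2 0, 0 and 1, and ES 0, 0 and 0. The groups overlapped at 0. The promoter region with the DR5 match, chr19:37697618-37698608, had a peak in 1 EpiSC_AFX1, 1 EpiSC_AFX2 and 1 Rd2_EpiLC library and in no FS, EpiSC_AF or ES library. Both EpiSC_AFX peaks covered the match and the Rd2_EpiLC peak did not. The FS peaks of the window lay at the Cyp26c1 promoter in 3 of 6 libraries, and inside Cyp26c1 in 1.

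Cyp26b1 (chr6:84571414-84593908) encodes a second retinoic acid hydroxylase. Over the full lists FS1 had 2, 1 and 3 peaks, FS2 2, 0 and 1, EpiSC_AF 1, 1 and 2, EpiSC_AFX1 1, 1 and 2, EpiSC_AFX2 2, 1 and 0, and ES 0, 0 and 0. FS and ES met at 0 (difference 1.5, exact permutation p = 0.107, adjusted p = 0.268). A region at −7.92 kb from its start site, chr6:84601557-84601902, had a full-list peak in 5 of 6 FS, 3 of 3 EpiSC_AF, 1 of 6 EpiSC_AFX and 0 of 3 ES libraries, and in no Rd2 library. FS differed from ES there at Fisher's exact p = 0.0476 (adjusted p = 0.638) and from EpiSC_AFX at Fisher's exact p = 0.0801 (adjusted p = 1). It ranked between the 45.9th and the 78.2nd percentile in FS, between the 23rd and the 54th in EpiSC_AF and at the 14.6th in the EpiSC_AFX library. At equal length it was left in 2 FS2 libraries. The RefSeq promoter window of Cyp26b1 overlapped no peak in any of the 26 libraries.

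**Figure D4:**
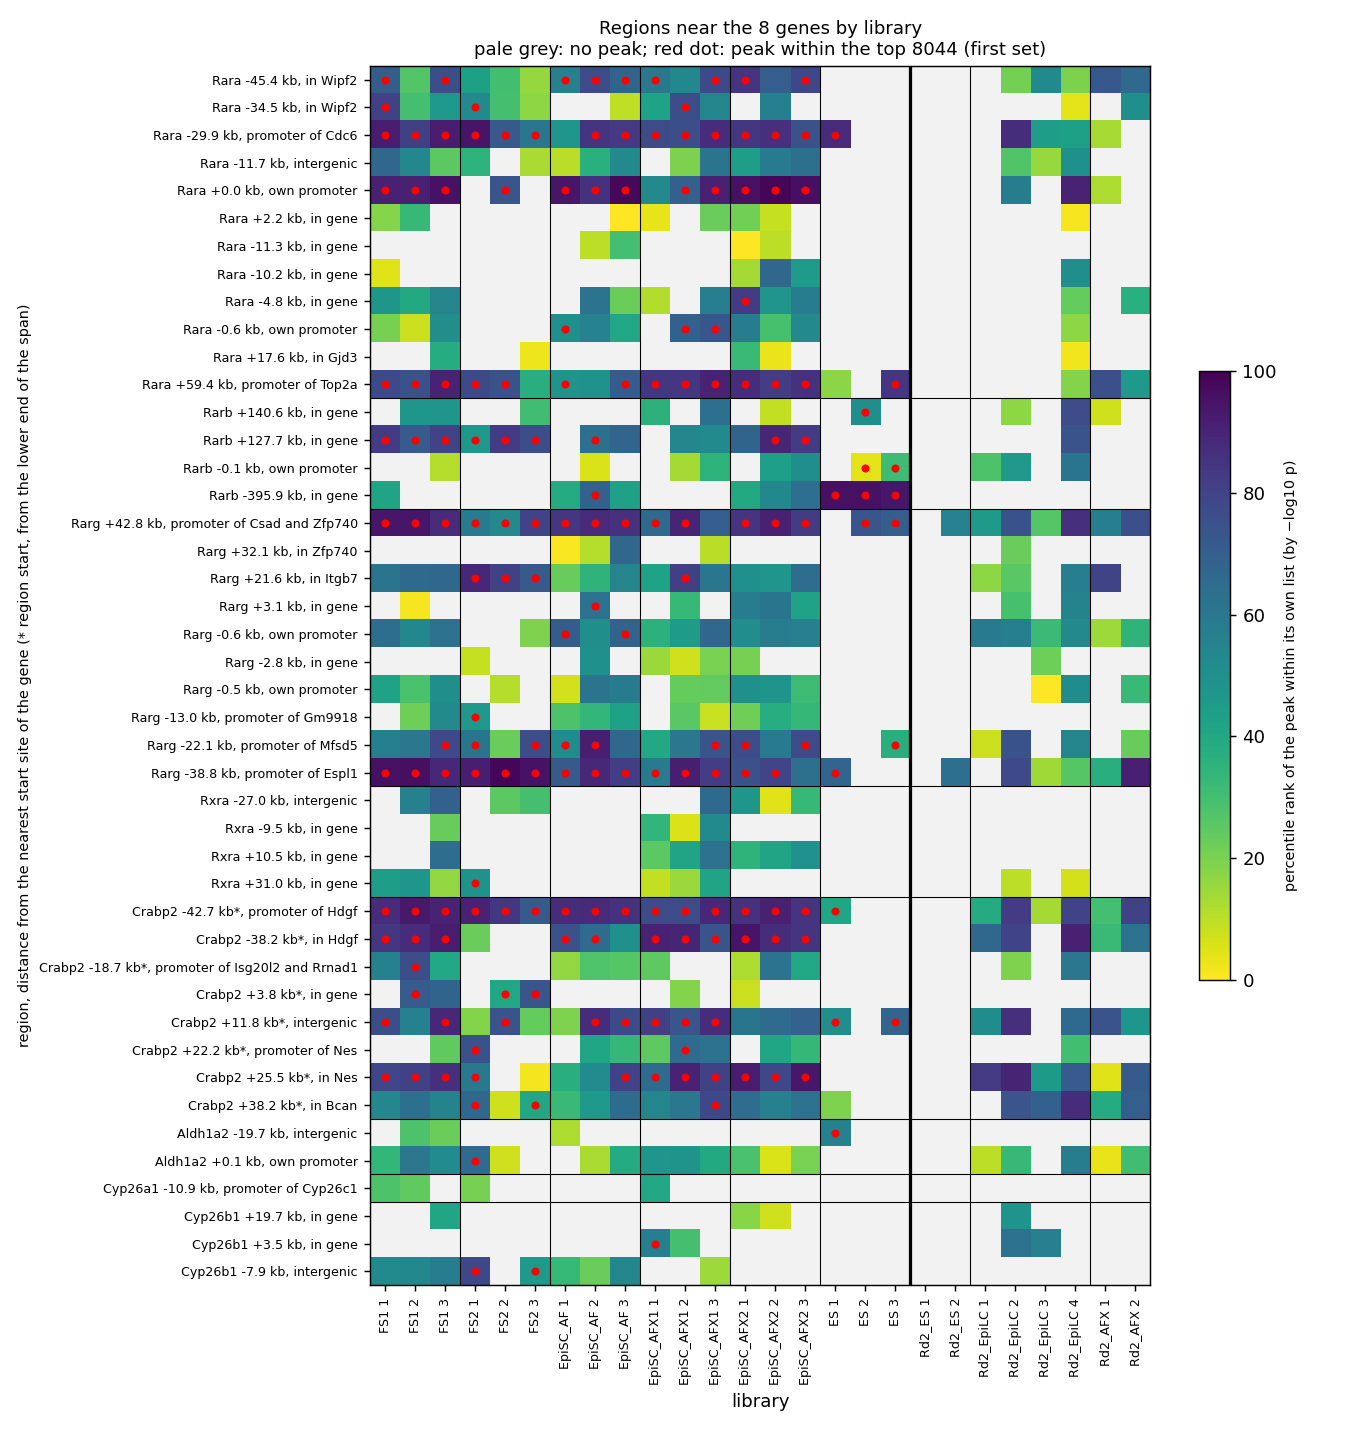
Percentile rank of the peak within its own full list (colour) for 44 regions near the 8 genes (y axis, by distance from a start site of the gene) in the 26 libraries (x axis). Grey means no peak and a red dot a peak at equal length. Shown are regions with a peak in every library of a first-set line, or separated between types, and others with a peak in at least 4 libraries, and the ES columns are empty in most rows.

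Promoters with a DR5 match were seldom open in any cell type. At equal length, 1.04% ± 1.61 of the 32 DR5 windows overlapped a peak in FS (SD, n = 6), 1.56% ± 1.71 in EpiSC_AFX (n = 6), 6.25% ± 0 in EpiSC_AF (n = 3) and 2.08% ± 1.8 in ES (n = 3). Over all 32851 windows the shares were 16.4% ± 1.36, 17.5% ± 0.307, 17.7% ± 0.0846 and 13.8% ± 0.204. Over all full lists the DR5 windows reached 6.77% ± 4.6 in FS, 12.5% ± 4.42 in EpiSC_AFX, 9.38% ± 3.13 in EpiSC_AF and 3.13% ± 0 in ES, beside 28.9% ± 7.07, 31.2% ± 2.9 and 34.2% ± 2.44 of all windows in FS, EpiSC_AF and EpiSC_AFX and 15.4% ± 1.56 in ES. One window is 3.13% of the 32, so these shares rest on few windows in each library.

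Presence within 1 kb of a gene's span over the 26 libraries was compared between each member and all protein-coding genes more than 50 kb away. Crabp2 shared its pattern of presence with Kidins220 and Fam189a2 in 24 of 26 libraries, and Cyp26b1 with Psmd9 in 23. The other members tied with more than 3 genes, from 4 genes for Rxra and Aldh1a2 to 163 for Rarg, which shared its pattern in all 26 libraries.

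The other 34 pathway genes were read from 3 lists. Beside their counts, 17.9% of all protein-coding genes tested were higher in FS than in ES without overlap in the full lists, and 5.21% were higher in FS and 2.12% higher in ES at equal length. Among 12 genes of retinoid supply and binding, none was separated between FS and ES at equal length (8 had a peak), and in the full lists 3 were higher in FS without overlap. These were Rbp4, the serum retinol carrier, Rdh11, a retinol dehydrogenase, and Aldh1a3, another retinaldehyde dehydrogenase. Rbp4 had 1.33 peaks in FS and 0 in ES, Rdh11 2.83 and 1, and Aldh1a3 1.17 and 0 (for each, p = 0.0119 by exact permutation, adjusted p = 0.128). Among 10 receptor partners and cofactors, none was separated at equal length and 4 were higher in FS without overlap in the full lists, namely the receptor partner Rxrb (4.67 peaks in FS and 0.667 in ES), the coactivators Ncoa3 (4 and 1.33) and Med1 (4.5 and 2), and the nuclear receptor Ppard (8.17 and 1.67). Among 12 target genes, Meis2, a homeobox gene, was higher in ES at equal length, with 1 peak in each ES library and 0 in FS (exact permutation p = 0.0119, adjusted p = 0.19). The direction turned in the full lists, where Meis2 had 4 peaks in FS and 1.67 in ES (exact permutation p = 0.31, adjusted p = 0.509). Meis1 was higher in FS in the full lists without overlap (2.67 and 0 peaks, exact permutation p = 0.0357, adjusted p = 0.171). The median differences between FS and ES at equal length were 0.333 peaks for supply, 0.417 for cofactors and 0 for targets, beside 0.167 over all genes. Over the full lists they were 1.25, 2.17 and 1.58, beside 1.17.

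Between FS and EpiSC_AFX no gene of the 3 lists was separated, at equal length or in the full lists. Beside this, 0.129% of all genes were higher in FS and 0.106% higher in EpiSC_AFX at equal length, and 0.00985% and 0.0985% in the full lists. At an unadjusted p under 0.05 by exact permutation there were 2 target genes at equal length. In the full lists there were 1 cofactor and 1 target gene. Of all genes tested these were 472 of 16993 and 843 of 20309.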

How the data were processed

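Peaks were taken from 26 lists, 1 per library. The submitters' processing notes name Trim Galore, Bowtie, Picard, MACS2 and mm10, with no versions. The deposited lists were read without a header row, and their columns were taken as a score, a fold enrichment ratio, a −log10 p and a −log10 q for each peak. All are the authors' values. They served to order and select the peaks of 1 list and were not compared between lists. What the fold is relative to is not given in the sources used here. No list had a −log10 q below 1. The shortest peak was 150 bp in the first set and 110 bp in the Rd2 set, so the sets were compared by presence only, as a description.

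Gene spans and promoters came from RefSeq tables of GRCm38.p6, and all 8 members and the 34 other pathway genes matched. Peaks overlapping or touching were merged into regions, and an overlap of at least 1 bp counted as presence. A region was named where every library of a first-set line had a peak in the full lists, or where it separated FS from another type. The members and lists were chosen with earlier results of these data known. Replicate numbers did not pair libraries. Python 3.11.15, numpy 2.4.6, pandas 2.3.3 and scipy 1.17.1 were used, and the tests were checked on simulated data. Alternatives were full lists, another equal length, ranking by fold, a −log10 q of at least 5, an overlap of 50%, a 20 kb window, a replicate block and leaving out each library. FS1 or FS2 alone was added after seeing the data. The pathway lists' comparison of FS with EpiSC_AF is not reported here.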

Additional observations from a re-analysis of the deposited data

Results flagged for a closer look

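A single library stood apart from the others of its group in 5 of the 35 groups of peak numbers examined. Most values are 0 or 1, and in each of the 5 groups the other libraries were tied. No chance rate is known for such tied counts, so 5 of 35 does not show an excess. Aldh1a2 had 2 peaks in the third EpiSC_AFX1 library and 1 in each of the other EpiSC_AFX libraries, in the full lists. Cyp26a1 had 2 peaks in the second Rd2_EpiLC library and 0 in the others. At equal length, the first FS2 library had 1 peak for Rxra and 1 for Aldh1a2, where the other FS libraries had 0. The first EpiSC_AFX1 library had 1 peak for Cyp26b1 at equal length, where the other EpiSC_AFX libraries had 0.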

How the results depend on the processing

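No adjusted p passed 0.05 under any alternative. With 1 FS line alone against ES or EpiSC_AF this was fixed in advance. So few libraries cannot give even an unadjusted p under 0.05. In the other alternatives, the replicate block included, the number of libraries also limits how small p can be. The lack of a pass is therefore no sign that the results are robust. Peaks near the 8 genes, FS minus ES, were 6.17 at equal length, 22.5 in the full lists and 1.67 in a 20 kb window. Against EpiSC_AFX the value of 1 turned to −6 in full lists and −4.17 with a −log10 q of at least 5, and against EpiSC_AF 1.17 turned to −1.5 and −0.833, so these directions follow the choice of list. Leaving out 1 library gave 5.33 to 6.83, 0.167 to 1.43 and 0.333 to 1.83. Separated regions between FS and ES numbered 2, but 4 in full lists and 5 with FS1 alone, and 2 to 6 when 1 library was left out, with 6 without the first ES library. To the 2 Rarb regions, ranking by fold added the Hdgf promoter region and FS2 alone added the Itgb7 region. Against EpiSC_AFX there were 0, and 1 with FS2 alone. Against EpiSC_AF there were 0, but 1 in full lists, 2 with FS2 alone and 0 to 2 when 1 library was left out, with 2 without the second EpiSC_AF library. With fewer libraries any region is separated more easily. The counts with 1 FS line or without 1 library stand beside no share of all regions, so they show no excess at these genes. For single genes, FS minus ES for Aldh1a2 turned from −0.17 to 1 in full lists and 0.167 without the first ES library. Against EpiSC_AFX, full lists turned Rarb to −0.333, Rarg to −2 and Rxra to −0.833, a −log10 q of at least 5 turned Rarg to −0.5, ranking by fold turned Rara to 0.167, and FS1 alone turned Cyp26b1 to −0.167. Against EpiSC_AF, full lists turned Rarb to −0.333 and Crabp2 to −0.667, an equal length of 11796 turned Rarb to −0.5, ranking by fold turned Rara to 0.167 and Rarg to 0.333, FS1 alone turned Rara to 0.333 and FS2 alone turned Rarg to 0.333. The cause was not tested. Same-numbered libraries did not deviate together (r between −0.043 and 0.0399 over 24 pairs, best with its own number in 8), and a replicate block, which by construction cannot move the differences of 6.17, 1 and 1.17 peaks or the 2, 0 and 0 regions, gave no member gene an adjusted p under 0.05, the lowest being 0.429 for Crabp2 between FS and ES (exact permutation p = 0.037). Read depth is unknown, so an absent peak, above all in the short ES and Rd2_ES lists, does not show closed chromatin.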
